A study of Mus musculus with 8 samples.

Results

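Forkhead proteins are transcription factors that share a winged-helix DNA-binding domain, and Foxp3, which defines regulatory T (Treg) cells, is the member of the family best known in these cells. The results below follow 10 other forkhead genes, chosen by name: Foxp1 and Foxp4, Foxo1, Foxo3 and Foxo4, Foxn2 and Foxn3, Foxk1 and Foxk2, and Foxj3. Each symbol matched a single row among the 27594 genes of the count table, and all 10 were among the 14540 genes with enough counts to be tested. RNA sequencing was done on C57BL/6 mice aged 6 to 8 weeks, from spleen and peripheral lymph nodes. The WT mice carried Foxp3-YFP-Cre, a Cre recombinase and yellow fluorescent protein expressed from the Foxp3 locus, and the Foxp1 cKO mice carried the same allele with Foxp1fl/fl. Both genotypes therefore shared the Cre and reporter. The Cre is meant to act in cells that express Foxp3, which was not tested here. From each genotype, CD4+YFP+ cells were sorted as resting Treg (rTreg) cells, CD44low, and activated Treg (aTreg) cells, CD44high, with a further surface marker in the gate, giving 4 groups (WT rTreg, Foxp1 cKO rTreg, WT aTreg and Foxp1 cKO aTreg) of 2 libraries each. The labels do not say whether a library came from a single mouse or from pooled mice. The p-values therefore measure only the spread between these libraries that is left after a shared difference between replicate numbers is taken out. Those given without the replicate block keep that difference in the spread.

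The subfamilies differ in how they work. Foxp proteins are mostly repressors that pair with each other through a leucine zipper, and Foxp1 is known for keeping naive T cells quiescent. Foxo proteins are activators under the control of growth signals: Akt phosphorylates them and they leave the nucleus, whereas in resting cells they switch on genes of lymphocyte homing, survival and stress resistance, and Foxo1 is required for normal Treg cells. Foxk1 and Foxk2 respond to mTOR and act on glycolysis and autophagy, Foxn3 is a repressor of the checkpoint-suppressor type, Foxn2 is its close relative, and Foxj3 is an activator best studied in muscle and germ cells.

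Total counts ranged from 6373170, in Foxp1 cKO rTreg replicate 1, to 15268623, in WT aTreg replicate 2, and 3 counts, taken as the floor of detection, equal 0.196 to 0.471 CPM (read counts scaled to the library total). This floor covers counting error only, since the reads carry no molecular identifiers. Each of the 10 genes lay far above it in every library. The cells matched their labels by Cd44, a gene of the sort, which was at 29.6 to 45.3 CPM in the rTreg libraries and 174 to 214 CPM in the aTreg libraries. The summed level of 6 T and Treg cell genes was 2788 to 4317 CPM over the 8 libraries. Of these, Cd3e and Cd4 mark T cells in general. Between genotypes in rTreg cells the 6 moved in both directions: Cd4 by 0.54 and Cd3e by 0.29 on the log2 scale, Ctla4 by -0.88, Ikzf2 by -0.47, Foxp3 by -0.32 and Il2ra by -0.062. Over all libraries the summed levels were 3.40 to 4.62 CPM for 4 B cell markers and 0 to 3.03 CPM for 2 erythroid markers. Other markers moved with the subset: 2 NK cell markers summed to 0 to 0.236 CPM in WT rTreg and 0.478 to 0.506 in Foxp1 cKO rTreg, against 2.74 to 3.59 in WT aTreg and 2.16 to 3.19 in Foxp1 cKO aTreg cells. For 2 CD8 T cell markers the sums were 12.5 to 16.7 and 13.2 to 14.3 CPM in WT and Foxp1 cKO rTreg, above the 8.08 to 9.98 and 6.11 to 8.13 CPM of WT and Foxp1 cKO aTreg cells. Nearly all of this was Cd8b1, at 5.97 to 15.7 CPM over the 8 libraries, with Cd8a at 0.110 to 0.921 CPM. In the NK sums of the aTreg libraries, Klrb1c was at 2.01 to 2.93 CPM and Ncr1 at 0 to 0.962 CPM. The summed level of 5 myeloid markers, of which Mpo was at 0 in both WT rTreg libraries, was 0.786 to 1.66 CPM in WT rTreg against 5.20 to 12.4 CPM in Foxp1 cKO rTreg, and 3.14 to 3.40 CPM in WT aTreg against 3.81 to 18.8 CPM in Foxp1 cKO aTreg cells. Whether these markers stand for other cells, and what part such cells had in the results below, was not tested. Replicate 1 libraries held 0 to 3 counts of Xist and 2143 to 4356 Y-linked counts. Replicate 2 libraries held 15098 to 21822 Xist counts and 0 Y-linked counts, so the replicate number went with this difference in every group. The 2 libraries of each group therefore came from different mice, and their spread holds this difference as well. The block for the replicate number takes out the part of it that the groups share. Replicate number and this difference cannot be told apart.

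Foxp1 lies on chromosome 6, at chr6:98925338-99522721 on the minus strand of GRCm38, and Foxo1, the other member with a difference between genotypes, at chr3:52268336-52353221 on the plus strand. RefSeq promoter windows, taken as the 250 bases before a transcription start (build GRCm38.p6), were found for 7 of the 10 genes, 9 windows in all, of which Foxp1 has 3. All 3 Foxp1 windows hold the forkhead core letters TGTTTA on either strand, with 1, 2 and 1 matches, and the other 6 windows hold none. Among all 32851 windows, 12% hold these letters. The motif was chosen after the sequences were seen. The longer TGTTTAC, which contains it, and TATTTAT were in none of the 9 windows, against 3.17% and 5.17% of all windows. A match is a description of the letters, not of binding. The first Foxp1 window overlaps annotated exons over 169 of its bases and is not printed. The others, inside the gene and upstream of internal starts, are shown with TGTTTA in capitals, beside the Foxo1 window, which has none.
Foxp1, chr6:99266516-99266765, minus strand: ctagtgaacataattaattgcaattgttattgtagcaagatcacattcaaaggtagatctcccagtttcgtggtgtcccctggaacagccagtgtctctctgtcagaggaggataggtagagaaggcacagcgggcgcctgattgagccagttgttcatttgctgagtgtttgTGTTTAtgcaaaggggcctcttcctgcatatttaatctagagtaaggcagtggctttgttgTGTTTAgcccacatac
Foxp1, chr6:99028299-99028548, minus strand: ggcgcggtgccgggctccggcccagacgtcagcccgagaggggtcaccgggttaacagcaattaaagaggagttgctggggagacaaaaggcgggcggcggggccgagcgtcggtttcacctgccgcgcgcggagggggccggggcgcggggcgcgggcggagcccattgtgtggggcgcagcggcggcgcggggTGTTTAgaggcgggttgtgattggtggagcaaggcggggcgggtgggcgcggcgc
Foxo1, chr3:52268087-52268336, plus strand: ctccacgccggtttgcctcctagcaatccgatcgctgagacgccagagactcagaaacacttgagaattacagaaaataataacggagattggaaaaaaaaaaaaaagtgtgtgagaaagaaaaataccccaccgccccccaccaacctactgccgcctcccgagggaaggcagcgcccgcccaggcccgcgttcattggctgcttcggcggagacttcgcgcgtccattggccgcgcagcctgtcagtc

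Levels between genes were compared per length, as deposited FPKM values, which divide each count by the library total and by the length of the gene. In WT rTreg cells the order was led by Foxk1 at 45.6 ± 1.69 FPKM, Foxo1 at 44.9 ± 6.61, Foxp4 at 41.1 ± 5.10 and Foxn3 at 38.4 ± 7.53 (mean ± SD, n = 2 here and below). Neighbours among these 4 overlapped in range, so their order is not set by these libraries. Foxp1 followed at 26.5 ± 0.915 and Foxo3 at 24.7 ± 1.68 FPKM, whose ranges also overlapped, then Foxo4 at 22.3 ± 0.167, Foxn2 at 16.1 ± 1.01, Foxk2 at 14.8 ± 0.163 and Foxj3 at 8.58 ± 0.0306, each below the gene before it in both libraries. The place of Foxn3, and of Foxp1 relative to it in each group, rests on the deposited Foxn3 length of 4651 bases. Its merged exons in GENCODE M21 cover 11501 bases. For the other 9 genes the lengths were equal. In WT aTreg cells Foxp4 stood first at 53.1 ± 9.54 FPKM, above Foxo1 at 32.9 ± 1.71 in both libraries, and Foxk1, Foxo4, Foxo3, Foxn3, Foxp1, Foxn2, Foxk2 and Foxj3 followed, with Foxp1 seventh at 17.3 ± 0.301. Neighbours from Foxo1 to Foxo4 and from Foxp1 to Foxk2 overlapped in range, so the order within these runs is not set. In Foxp1 cKO aTreg cells Foxp4 was again first at 46.3 ± 2.98 FPKM, and Foxp1 had moved to the ninth place at 8.35 ± 1.53 FPKM, overlapping Foxj3 at 8.24 ± 0.342. The order in Foxp1 cKO rTreg cells was led by Foxk1, Foxp4, Foxn3 and Foxo1, whose neighbours overlapped. Rescaling FPKM by the TMM factors moved no gene's place in any group.

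**Figure D1:**
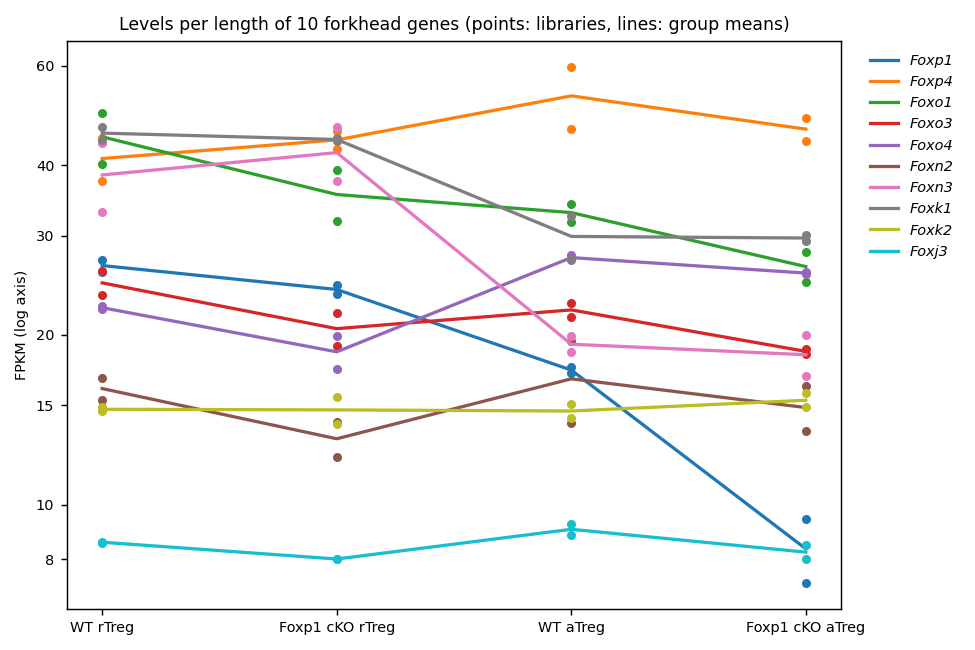
Levels per length of the 10 forkhead genes, in FPKM on a log axis, in the 4 groups. Points are libraries and lines join group means. Foxp4 is the highest gene in both aTreg groups. At the deposited lengths, Foxp1 falls from the fifth place in WT rTreg cells, at 26.5 FPKM, to the ninth in Foxp1 cKO aTreg cells, at 8.35 FPKM. In both of these groups it overlaps the gene below it.

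The summed level of the 10 genes was 287 and 279 FPKM in the WT rTreg libraries, 277 and 254 in Foxp1 cKO rTreg, 243 and 242 in WT aTreg, and 217 and 207 in Foxp1 cKO aTreg. With the deposited lengths the rTreg libraries thus all lay above the aTreg libraries. The longer GENCODE length of Foxn3 would lower the rTreg sums more than the aTreg sums, so this separation rests on the deposited length. Foxp1 made up 9.03% and 9.74% of this sum in WT rTreg, 8.84% and 9.32% in Foxp1 cKO rTreg, 7.22% and 7.07% in WT aTreg, and 4.34% and 3.51% in Foxp1 cKO aTreg cells. In bulk samples such as these, a smaller share of expressing cells and less RNA per cell cannot be told apart.

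The targeted gene, Foxp1, was examined first. Its level, in CPM after TMM normalization, was 353 and 384 in the WT rTreg libraries, 342 and 338 in those labelled Foxp1 cKO rTreg, 234 and 230 in WT aTreg, and 126 and 102 in Foxp1 cKO aTreg. The aTreg groups were clearly apart, and the rTreg groups were close to each other without overlapping. In rTreg cells the difference between genotypes was -0.12 on the log2 scale (SE 0.094, 95% interval -0.34 to 0.10) and did not pass the test (edgeR adjusted p = 0.46). In aTreg cells Foxp1 was lower in the Foxp1 cKO libraries by a log2 fold change of -1.03 (SE 0.096, edgeR adjusted p = 0.0019), with -0.90 and -1.18 in the replicate pairs. The genotype difference in aTreg cells minus that in rTreg cells was -0.92 (SE 0.13, interaction term, edgeR adjusted p = 0.048), and Foxp1 was the only one of the 10 genes to pass this test, which 0.330% of all tested genes passed. Without the replicate block the interaction value was -0.91 with an edgeR adjusted p = 0.29, and no gene of the 14540 passed. It also lost its call without any single one of 6 of the 8 libraries: both WT rTreg libraries (-0.80 and -1.03 without replicate 1 and 2), both Foxp1 cKO rTreg libraries (-0.94 and -0.89), WT aTreg replicate 2 (-0.90) and Foxp1 cKO aTreg replicate 2 (-0.75), with edgeR adjusted p from 0.094 to 0.27.

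The count sums reads over all exons of Foxp1, and which exons the Cre removes is not given in the sources used here. The gene-level count can therefore include reads from outside the deleted part and does not check the genotype of the rTreg libraries. These are named by their labels throughout. The paper reported Foxp1 as completely deleted in Treg cells of the Foxp1-deficient mice, by immunoblot, quantitative PCR and intracellular staining. Those deficient cells were not split into rTreg and aTreg cells. Foxp1 shares 300 exon bases with the annotated gene Gm20696, which had at most 42 counts in any library. Foxo1 shares 674 exon bases with the antisense gene Gm20402, which was not in the count table. Without strand information, the Foxo1 count may hold reads from that gene.

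Foxp4, the partner of Foxp1 in the same subfamily, was at 219 and 189 CPM in WT rTreg, 230 and 218 in Foxp1 cKO rTreg, 286 and 223 in WT aTreg, and 232 and 221 in Foxp1 cKO aTreg cells. The genotypes overlapped in both subsets, with log2 differences of 0.14 in rTreg (95% interval -0.046 to 0.33, edgeR adjusted p = 0.30) and -0.16 in aTreg cells (-0.35 to 0.026, edgeR adjusted p = 0.28). The difference between these 2 effects was -0.30 (SE 0.11, unadjusted p = 0.030, edgeR adjusted p = 0.32). In WT cells Foxp4 was higher in aTreg than in rTreg libraries by 0.32 (SE 0.080, edgeR adjusted p = 0.020), 0.39 and 0.24 in the pairs, a call that was lost without the replicate block (edgeR adjusted p = 0.15) and with unfiltered log2 FPKM (limma adjusted p = 0.055). Leaving out WT rTreg replicate 1 or 2 gave 0.34 (edgeR adjusted p = 0.083) and 0.31 (0.11), and leaving out WT aTreg replicate 1, the highest library, gave 0.19 (0.17). In Foxp1 cKO cells the subsets differed by 0.015 (95% interval -0.17 to 0.20). The ratio of Foxp1 to Foxp4 in FPKM was 0.579 and 0.726 in WT rTreg, 0.532 and 0.555 in Foxp1 cKO rTreg, 0.293 and 0.369 in WT aTreg, and 0.195 and 0.164 in Foxp1 cKO aTreg cells, so Foxp4 exceeded Foxp1 per length in all 8 libraries. This order rests on the deposited lengths, 13751 bases for Foxp1 and 4926 for Foxp4. In CPM, Foxp1 was above Foxp4 in every rTreg library and in WT aTreg replicate 2.

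**Figure D2:**
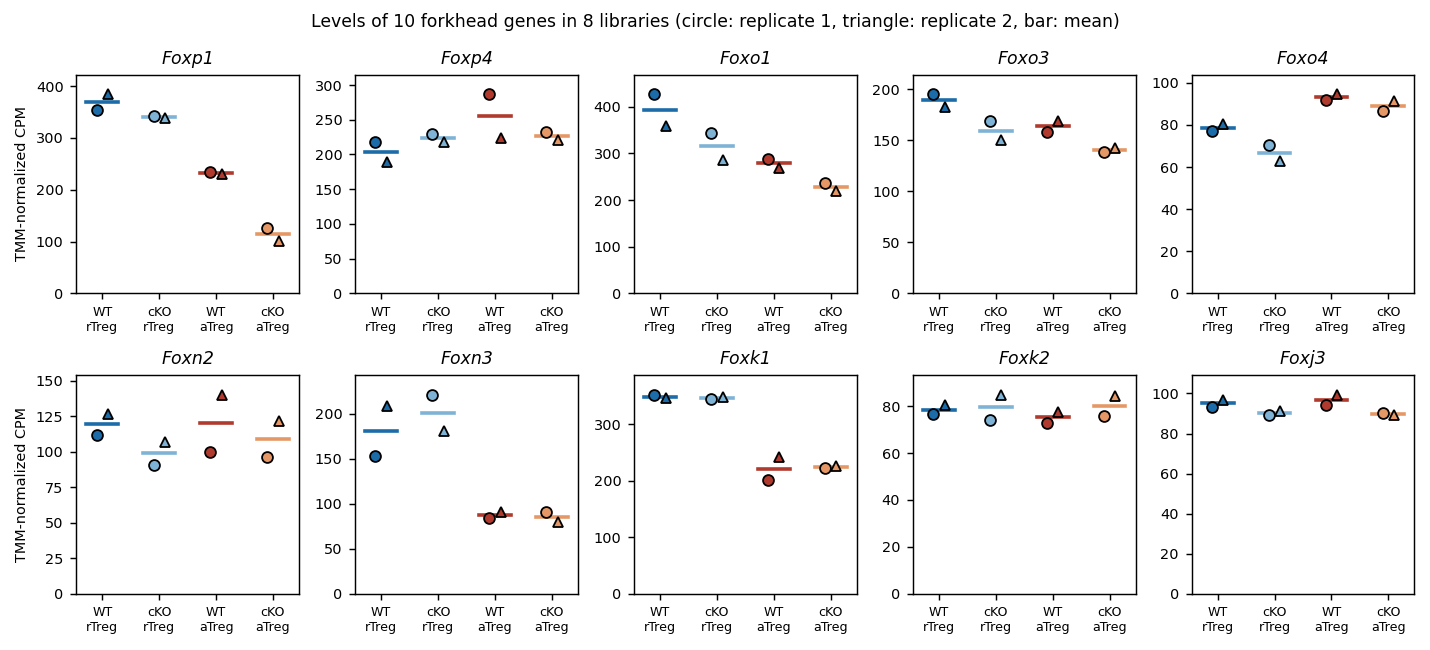
Levels of each forkhead gene in the 8 libraries, in TMM-normalized CPM on axes that start at 0. Circles are replicate 1, triangles replicate 2, and bars group means. Foxp1 falls in aTreg cells and furthest in Foxp1 cKO aTreg cells, Foxo1 is lower in both Foxp1 cKO groups than in the WT group of the same subset, and Foxn3 and Foxk1 separate rTreg from aTreg cells in both genotypes.

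Foxo1 was lower in Foxp1 cKO than in WT cells of both subsets. Its levels were 426 and 358 CPM in WT rTreg, 345 and 286 in Foxp1 cKO rTreg, 288 and 269 in WT aTreg, and 236 and 219 in Foxp1 cKO aTreg cells. The genotypes did not overlap within either subset, although the replicate 1 libraries were above those of replicate 2 in every group. The log2 difference was -0.31 in rTreg cells (SE 0.065, edgeR adjusted p = 0.022; -0.31 and -0.32 in the pairs) and -0.29 in aTreg cells (SE 0.065, edgeR adjusted p = 0.038; -0.29 and -0.30 in the pairs), and the 2 effects differed by 0.021 (95% interval -0.19 to 0.23). Neither reached the 1.5-fold the study asked of genotype differences. Both calls depended on the replicate block, and without it the edgeR adjusted p was 0.27 in rTreg and 0.41 in aTreg cells with the same values. Leaving out 1 library ended the rTreg call for each of its own 4 libraries, with -0.28 and -0.37 without WT rTreg replicates 1 and 2 and -0.38 and -0.26 without Foxp1 cKO rTreg replicates 1 and 2 (edgeR adjusted p from 0.068 to 0.20). The aTreg call was lost whichever of the 8 libraries was left out, with values from -0.34 to -0.24 (edgeR adjusted p from 0.056 to 0.23).

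Foxo3, which acts on many of the same targets, was at 195 and 183 CPM in WT rTreg, 168 and 151 in Foxp1 cKO rTreg, 158 and 169 in WT aTreg, and 139 and 143 in Foxp1 cKO aTreg cells. Both WT libraries lay above both Foxp1 cKO libraries within each subset. The log2 differences of -0.25 in rTreg (SE 0.076, edgeR adjusted p = 0.075) and -0.22 in aTreg cells (SE 0.075, edgeR adjusted p = 0.13) did not pass the test. Foxo4, the X-linked member, was at 76.9 and 80.4 CPM in WT rTreg, 70.6 and 62.9 in Foxp1 cKO rTreg, 91.9 and 94.5 in WT aTreg, and 86.8 and 91.6 in Foxp1 cKO aTreg cells. It differed by -0.24 between genotypes in rTreg cells (SE 0.077, edgeR adjusted p = 0.082) and by -0.064 in aTreg cells (95% interval -0.24 to 0.11). In the ratio of Foxo1 to Foxo4 per length, WT rTreg libraries stood at 2.23 and 1.79, Foxp1 cKO rTreg at 1.96 and 1.83, WT aTreg at 1.26 and 1.15, and Foxp1 cKO aTreg at 1.09 and 0.960. The rTreg libraries were thus above the aTreg libraries in this ratio, and the genotypes overlapped in rTreg cells only.

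Between genotypes in rTreg cells, Foxo1 was the single member that passed the test, 1 of 10, where 12.0% of all 14540 genes passed and 5.45% passed as lower. None of the 10 also passed the 1.5-fold threshold, which 5.60% of all genes did. An unadjusted p under 0.05 was reached by 4 members and by 28.5% of all genes, and limma-voom and DESeq2 with the fold threshold likewise gave none. The median log2 difference of the 10 was -0.096, beside 0.0029 over all tested genes. The libraries of the 2 groups did not overlap for 6 members, all lower in Foxp1 cKO cells, where 45.2% of all genes did not overlap and 22.3% did so as lower. In this comparison the median difference fell with gene length, from 0.088 among the shortest genes to -0.051 among the longest (4 equal classes of length), and the forkhead genes lay from the 48.4th percentile of length (Foxo4, 3485 bases) to the 97.5th (Foxp1, 13751 bases). With the length trend removed the Foxo1 difference was -0.27 (edgeR adjusted p = 0.037).

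Between genotypes in aTreg cells, Foxp1 and Foxo1 passed, 2 of 10, where 6.88% of all genes passed and 2.77% as lower. Only Foxp1 also passed 1.5-fold, as 4.03% of genes did. The median of the 10 was -0.12 beside 0.0018 over all genes, and 5 members did not overlap, all lower in Foxp1 cKO cells, against 41.8% of all genes in either direction and 19.6% as lower. Foxk1, Foxk2, Foxn3 and Foxj3 differed between genotypes by -0.11 to 0.15 in either subset, and Foxn2 by -0.28 in rTreg (SE 0.084, edgeR adjusted p = 0.073) and -0.13 in aTreg cells (SE 0.082, edgeR adjusted p = 0.38). None of these values passed the test.

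**Figure D3:**
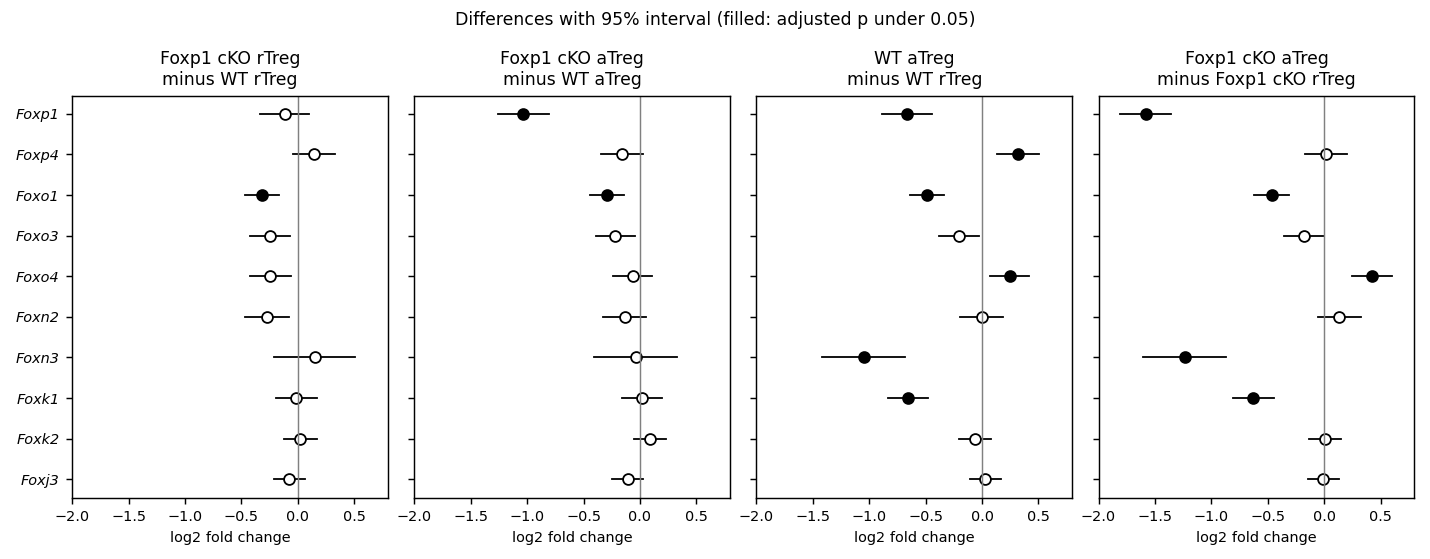
Log2 fold changes of the 10 forkhead genes in the 4 comparisons, with 95% intervals from the edgeR fit. Filled points passed at an adjusted p under 0.05. Between genotypes, Foxo1 (-0.31) is filled in rTreg cells and Foxp1 (-1.03) and Foxo1 (-0.29) in aTreg cells. Between subsets, 6 genes are filled in WT and 5 in Foxp1 cKO cells.

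More forkhead genes passed between the subsets than between the genotypes, as did more of all genes. Over all tested genes, 31.9% (WT) and 40.1% (Foxp1 cKO) passed between subsets, against 12.0% (rTreg) and 6.88% (aTreg) between genotypes. In WT cells 6 of 10 passed, where 31.9% of all genes did. Foxp4 (0.32) and Foxo4 were higher in aTreg cells, and Foxp1, Foxo1, Foxn3 and Foxk1 were lower, beside 18.2% of all genes higher and 13.6% lower. Foxn3 alone passed the 2-fold threshold the study used between subsets, which 12.3% of genes passed. The median of the 10 was -0.13 beside -0.0046 over all genes, and 7 members did not overlap between subsets, as did 56.9% of all genes.

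Foxn3 was at 153 and 209 CPM in WT rTreg, 221 and 181 in Foxp1 cKO rTreg, 84.3 and 90.5 in WT aTreg, and 90.2 and 80.0 in Foxp1 cKO aTreg cells. All 4 rTreg libraries lay above all 4 aTreg libraries, with a wider spread among the rTreg libraries. It was lower in aTreg cells by a log2 fold change of -1.05 in WT (SE 0.16, edgeR adjusted p = 0.0019) and -1.24 in Foxp1 cKO cells (SE 0.16, edgeR adjusted p = 6.5e-04). Without WT rTreg replicate 2 the WT value was -0.73, short of 2-fold but still passing the test. Foxk1 was at 352 and 346 CPM in WT rTreg, 344 and 348 in Foxp1 cKO rTreg, 201 and 241 in WT aTreg, and 222 and 226 in Foxp1 cKO aTreg cells. It too separated the subsets without overlap, by -0.66 in WT (SE 0.077, edgeR adjusted p = 5.8e-04) and -0.63 in Foxp1 cKO cells (SE 0.077, edgeR adjusted p = 5.3e-04).

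Their relatives did not pass between subsets. Foxk2 lay between 72.7 and 84.9 CPM over all 8 libraries and differed between subsets by -0.060 in WT (95% interval -0.20 to 0.083) and 0.0080 in Foxp1 cKO cells (-0.14 to 0.15). Foxn2 lay between 90.8 and 140 CPM and was higher in replicate 2 than in replicate 1 in every group, with subset differences of -0.0049 in WT (-0.20 to 0.19) and 0.14 in Foxp1 cKO cells (-0.058 to 0.33). Foxj3 was the steadiest gene, between 89.2 and 99.4 CPM, with subset differences of 0.027 in WT (-0.11 to 0.17) and -0.0076 in Foxp1 cKO cells (-0.15 to 0.13). Per length, Foxk1 was 2.98 and 3.19 times Foxk2 in the WT rTreg libraries and 1.92 and 2.16 times in WT aTreg, and in Foxp1 cKO cells 2.84 and 3.21 times in rTreg and 1.86 and 2.02 times in aTreg.

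Foxp1 itself was lower in aTreg than in rTreg cells by -0.67 in WT (SE 0.094, edgeR adjusted p = 0.0014) and by -1.58 in Foxp1 cKO cells (SE 0.097, edgeR adjusted p = 2.0e-05). The difference between these values is the interaction term given above. Foxo1 was lower by -0.49 in WT (SE 0.065, edgeR adjusted p = 0.0011) and -0.47 in Foxp1 cKO cells (SE 0.065, edgeR adjusted p = 9.6e-04), whereas Foxo3 differed by -0.21 (SE 0.075, edgeR adjusted p = 0.073) and -0.18 (SE 0.076, edgeR adjusted p = 0.10) and did not pass. Foxo4 ran the other way and was higher in aTreg cells, by 0.25 in WT (SE 0.075, edgeR adjusted p = 0.040) and 0.43 in Foxp1 cKO cells (SE 0.077, edgeR adjusted p = 0.0034). The WT call of Foxo4 was lost without the replicate block (edgeR adjusted p = 0.11), with DESeq2 (adjusted p = 0.12), with the length trend removed (edgeR adjusted p = 0.063), with unfiltered log2 FPKM (limma adjusted p = 0.076) and without any single one of 6 libraries: WT rTreg replicates 1 (0.22) and 2 (0.29), WT aTreg replicates 1 (0.26) and 2 (0.23), and Foxp1 cKO aTreg replicates 1 and 2 (0.25 each), with edgeR adjusted p from 0.050 to 0.20. In Foxp1 cKO cells 5 of 10 passed between subsets, where 40.1% of all genes did, Foxo4 being higher (21.9% of genes) and Foxp1, Foxo1, Foxn3 and Foxk1 lower (18.2%). Foxp1 and Foxn3 passed 2-fold, as 15.7% of genes did, and the median of the 10 was -0.092 beside -0.018. The subsets did not overlap for 6 members in Foxp1 cKO cells, as for 61.7% of all genes.

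The genes that Foxo proteins are known to switch on were read from a list of 22, all tested. Between genotypes in rTreg cells 4 passed, where 12.0% of all genes did and 5.45% as lower, and all 4 were lower in Foxp1 cKO cells: Sesn1, a stress-response sestrin (-0.89, SE 0.073), Gadd45a, a DNA-damage gene (-0.89, SE 0.14), Gabarapl1, of autophagy (-0.89, SE 0.22), and Ccr7, the lymph-node homing receptor (-0.47, SE 0.099). Sesn1 was at 154 and 206 CPM in WT rTreg and 89.6 and 103 in Foxp1 cKO rTreg cells, and Ccr7 at 397 and 308 against 298 and 212 CPM. The groups did not overlap for either gene, as for 45.2% of all tested genes, 22.3% being lower. The median of the 22 was -0.20 beside 0.0029 over all genes. In aTreg cells 3 were lower, namely Ccr7 (-1.56, SE 0.10), Sesn1 (-1.10, SE 0.074) and Sesn3 (-0.25, SE 0.051), and 2 were higher, S1pr1, the receptor for lymph-node exit (0.61, SE 0.13), and Rbl2, a brake on cell division (0.41, SE 0.079). Ccr7 was at 205 and 196 CPM in WT aTreg and 79.6 and 59.1 in Foxp1 cKO aTreg cells. Over all genes 2.77% passed as lower and 4.11% as higher. The median of the 22 was 0.0031 beside 0.0018. Ccr7 alone differed between its genotype effects, by -1.08 (edgeR adjusted p = 0.032), a call lost without the replicate block (edgeR adjusted p = 0.53). Without the block, 0 of the 22 passed in rTreg and 1, Ccr7, in aTreg cells, where 2.06% and 0.557% of all genes passed.

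Between subsets, 14 of the 22 passed in WT cells (7 higher and 7 lower in aTreg) and 16 in Foxp1 cKO cells (9 and 7), where 31.9% and 40.1% of all genes did. Without the block 7 and 8 passed, beside 16.3% and 23.9% of all genes. The targets moved in both directions. In WT cells those with the smallest adjusted p were Bcl2l11, which encodes the death protein Bim (-1.52, SE 0.095), and S1pr1 (-1.74, SE 0.14), both lower in aTreg cells, and Gabarapl1 (2.07, SE 0.17) and Rbl2 (0.95, SE 0.081), both higher. In Foxp1 cKO cells they were Ccr7 (-1.87, SE 0.10) and Bcl2l11 (-0.96, SE 0.094), both lower, and Rbl2 (1.45, SE 0.082) and Gabarapl1 (2.80, SE 0.20), both higher. The median of the list was 0.024 in WT and 0.077 in Foxp1 cKO cells, beside -0.0046 and -0.018 over all genes.

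**Figure D4:**
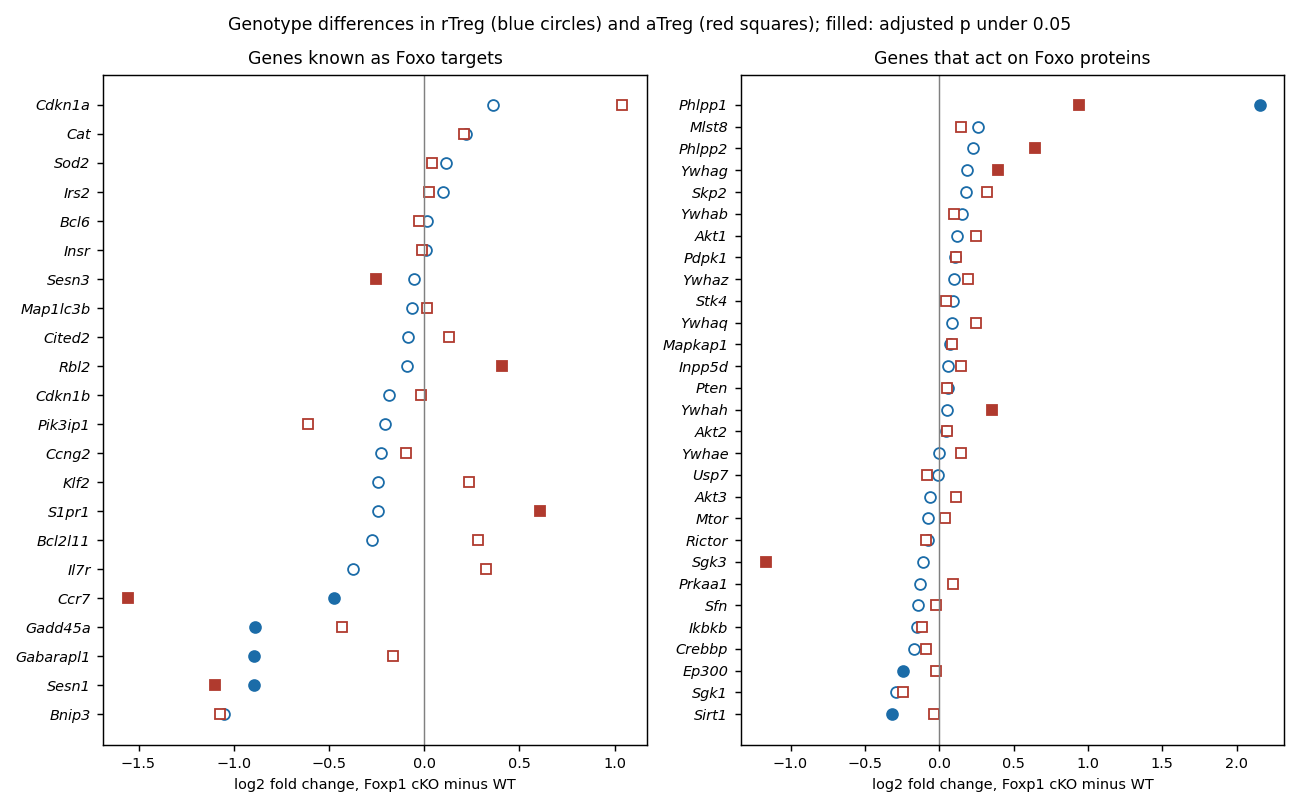
Log2 fold changes between genotypes of 22 known Foxo targets (left) and 29 genes whose products act on Foxo proteins (right), for rTreg (circles) and aTreg cells (squares), ordered by the rTreg value. Filled symbols passed at an edgeR adjusted p under 0.05. Of the targets, Sesn1 and Ccr7 are filled and lower in both subsets, and of the regulators Phlpp1 is filled and higher in both.

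Of 29 genes whose products modify or hold Foxo proteins, 3 passed between genotypes in rTreg cells, where 12.0% of all genes did. Phlpp1, a phosphatase of Akt, was higher in Foxp1 cKO cells by 2.15 (SE 0.11, edgeR adjusted p = 8.6e-05), and the deacetylase Sirt1 (-0.31, SE 0.062) and the acetyltransferase Ep300 (-0.24, SE 0.055) were lower. Phlpp1 stood at 55.9 and 53.6 CPM in WT rTreg, 239 and 247 in Foxp1 cKO rTreg, 97.3 and 72.8 in WT aTreg, and 161 and 162 in Foxp1 cKO aTreg cells. The genotypes were far apart in both subsets and furthest in rTreg cells. In aTreg cells 5 of 29 passed, beside 6.88% of all genes. Phlpp1 (0.94, SE 0.11), Phlpp2, its paralog (0.64, SE 0.14), and the 14-3-3 genes Ywhag (0.40, SE 0.081) and Ywhah (0.35, SE 0.056) were higher, and the Akt-related kinase Sgk3 (-1.17, SE 0.22) was lower. The genotype effects on Phlpp1 differed by -1.22 (edgeR adjusted p = 0.030), which did not pass without the block (edgeR adjusted p = 0.22). The medians of the list were 0.052 in rTreg and 0.093 in aTreg cells. Without the block 1 of the 29, Phlpp1, passed in each subset. Between subsets 13 passed in WT cells, 3 higher and 10 lower in aTreg, and 17 in Foxp1 cKO cells, 8 and 9, where 31.9% and 40.1% of all genes did, or 7 and 8 in all without the block (16.3% and 23.9% of all genes). The same 4 genes had the smallest adjusted p in both: the 14-3-3 gene Sfn (-0.91, SE 0.085, in WT and -0.79, SE 0.086, in Foxp1 cKO cells), Sgk3 (-1.76, SE 0.18, and -2.82, SE 0.20) and the kinase gene Ikbkb (-0.48, SE 0.059, and -0.45, SE 0.060) were lower in aTreg cells, and Phlpp2 (0.97, SE 0.15, and 1.39, SE 0.15) was higher. Of these, Ikbkb did not pass without the block in WT (edgeR adjusted p = 0.096) or Foxp1 cKO cells (0.098).

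Among 13 corepressor and chromatin genes whose products bind Foxp or Foxk proteins, 0 passed between genotypes in rTreg cells with edgeR, limma-voom or DESeq2, where 12.0% of all genes passed with edgeR. At an unadjusted edgeR p under 0.05 there were 4, beside 28.5% of all genes. In aTreg cells the deacetylase gene Hdac2 was lower (-0.30, SE 0.068, edgeR adjusted p = 0.043), from 77.8 and 82.2 CPM in WT to 65.4 and 64.7 CPM, the single one of the 13 to pass, where 6.88% of all genes did, and it did not pass without the replicate block (edgeR adjusted p = 0.24). Between subsets 2 passed in WT cells, Asxl1 (0.27, SE 0.057) and Gatad2b (-0.21, SE 0.057), and 5 in Foxp1 cKO cells, where Asxl1 (0.35, SE 0.057) was higher and Hdac1 (-0.31, SE 0.055), Hdac2 (-0.32, SE 0.069), Gatad2b (-0.23, SE 0.057) and Bap1 (-0.21, SE 0.065) were lower in aTreg cells. Over all genes 31.9% and 40.1% passed in these comparisons. Without the block 0 of the 13 passed in WT cells and 3, Asxl1, Hdac1 and Hdac2, in Foxp1 cKO cells.

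A further 25 forkhead genes were in the count table, of which 4 had enough counts to be tested: Foxd2, Foxj1, Foxj2 and Foxm1. Foxm1, which drives genes of mitosis, was at 5.25 and 5.34 CPM in WT rTreg, 9.72 and 10.9 in Foxp1 cKO rTreg, 6.03 and 11.5 in WT aTreg, and 13.6 and 22.9 in Foxp1 cKO aTreg cells. Within each subset both Foxp1 cKO libraries lay above both WT libraries, as for 22.9% of all tested genes in rTreg and 22.2% in aTreg cells. It was higher in Foxp1 cKO cells by 0.94 in rTreg (SE 0.25, edgeR adjusted p = 0.049) and 1.04 in aTreg cells (SE 0.22, edgeR adjusted p = 0.032), and neither passed without the replicate block. Foxm1 (0.82, SE 0.22) and Foxd2 (1.38, SE 0.27) were higher in aTreg than in rTreg cells of the Foxp1 cKO mice, of which Foxd2 also passed without the block, and Foxj2, at a mean of 118 CPM, and Foxj1, at 0.721 CPM, passed in no comparison. Of the 21 not tested, the highest mean was 0.216 CPM, for Foxc1, near the floor. Foxp3 itself was at 492 and 646 CPM in WT rTreg, 429 and 480 in Foxp1 cKO rTreg, 530 and 536 in WT aTreg, and 497 and 587 in Foxp1 cKO aTreg cells, and passed between genotypes in rTreg cells (-0.32, SE 0.084, edgeR adjusted p = 0.0496) and between subsets in Foxp1 cKO cells (0.25, SE 0.084, edgeR adjusted p = 0.046), and neither passed without the replicate block (edgeR adjusted p = 0.32 and 0.26).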

How the data were processed

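RNA was sequenced from 8 libraries, 2 in each of 4 groups. As deposited, the counts are whole reads per Ensembl gene. The authors used trim_galore for trimming, Picard to drop duplicates and htseq-count for counting, and the submitters' processing notes name HISAT2 2.0.5 and mm10. The library kit does not mark strand. The deposited FPKM values equal the count divided by the library total and by a length per gene, to within a relative deviation of 1.68e-06, so they set levels between genes and add no measurement. Coordinates are from GENCODE M21 (GRCm38).

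Tests used edgeR 4.0.16 in R 4.3.3 (TMM, glmQLFit, glmQLFTest) on the 14540 genes that passed filterByExpr with a minimum count of 10, which left out 13054. The fit took all 8 libraries, with group means and a block for the replicate number after the study's paired design, and the interaction was a term of that fit. The labels give the numbers but no shared litter or day. Deviations of same-numbered libraries correlated at 0.490 and 0.401 in the genotype comparisons and 0.632 and 0.589 in the subset comparisons, across genes. A gene passed at a Benjamini-Hochberg adjusted p under 0.05 over all tested genes, and the thresholds of 1.5-fold between genotypes and 2-fold between subsets are the study's. The scripts were tested on simulated data. In all, 20 alternatives were run, among them limma 3.58.1 (voom) and DESeq2 1.42.0, no replicate block, other filters and scalings, log2 FPKM with a pseudocount of 1 or 0.1, and leaving out each library.

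The 10 genes and the lists (22 Foxo targets, 29 genes acting on Foxo proteins, 13 corepressor genes, other forkhead genes and cell markers) were chosen with earlier results of these data known. Every member is named, and up to 4 genes of each list per comparison, those with the smallest adjusted p among the passing. List genes named beyond these 4 complete a small count and were added after their values were seen. A result for 1 further gene is not reported here. The 5 genes most like Foxp1 and Foxo1 are given by correlation.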

Additional observations from a re-analysis of the deposited data

Results flagged for a closer look

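The effect of genotype on Foxp1 differed between the subsets by -0.92 on the log2 scale, the aTreg effect of -1.03 minus the rTreg effect of -0.12 (SE 0.13, interaction term, edgeR adjusted p = 0.048), and this difference between groups is what marks it for a closer look. It passed in 7 of the 19 alternatives that gave a value, with adjusted p from 3.8e-06 to 0.30, and had the same direction in all 19.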

How the results depend on the processing

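Of the 15 member results that passed, all kept their direction under every alternative run, and 9 also passed under every one: Foxp1, Foxo1, Foxn3 and Foxk1 between subsets in both genotypes, and Foxo4 between subsets in Foxp1 cKO cells. Where a group was left with 1 library, that library was assumed to vary like the others.

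The members passing between genotypes in rTreg cells numbered 1, where 12.0% of all genes passed, against 0 without the replicate block (2.06% of genes) and with unfiltered log2 FPKM (0.663%), 3 with no filter on low counts (Foxo3 and Foxn2 added; 8.65%) and 3 with the libraries of the comparison alone (14.2%), and 0 to 2 when a library was left out. In aTreg cells they numbered 2 (6.88% of genes), against 1 without the block (0.557%), 1 with the libraries alone (3.03%), 1 with log2 FPKM plus 1 or plus 0.1 (1.34% and 1.00%), 0 with unfiltered FPKM (0.0761%, where Foxp1 had -0.98, limma adjusted p = 0.082, and the count past 1.5-fold was 0), and 1 whichever library was left out. The interaction count of 1 (0.330% of genes) became 0 without the block (0% of genes), with median-of-ratios size factors (-0.90, edgeR adjusted p = 0.052; 0.323%), with a filter of 1 CPM in 2 libraries (-0.91, edgeR adjusted p = 0.051; 0.335%) and with the 3 FPKM settings, and was 0 to 1 when a library was left out. Past 2-fold between subsets in WT cells there was 1 member, 0 with the 3 FPKM settings, and 0 to 1 when a library was left out, the 0 being without WT rTreg replicate 2. The block changed no other member call than those given with the results.

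Of 990 member values under alternatives, 59 differed in sign from the reported value, in 14 results of at most 0.19 in size, and none of these passed in either fit. Foxn2 between subsets in WT cells was 0.0095 without the block, 0.0071 with limma-voom, 0.0014 unfiltered, 4.8e-05 with the libraries alone, 6.6e-04 with the length trend removed, 0.038 with log2 FPKM plus 1, filtered or not, and 0.039 with plus 0.1. Foxj3 between subsets in Foxp1 cKO cells was 0.0023 with DESeq2, 0.0021 with median-of-ratios size factors, 0.031 unfiltered, 0.035 with log2 FPKM plus 1, filtered or not, and 0.039 with plus 0.1. With the length trend removed, Foxk1 between genotypes in rTreg cells was 0.027, Foxp4 and Foxk2 between subsets in Foxp1 cKO cells were -0.0021 and -0.0088, and the Foxo1 interaction was -0.0076. With log2 FPKM, Foxk2 between genotypes in rTreg cells was -0.0054 (plus 1, filtered or not) and -0.0059 (plus 0.1), and Foxk1 in aTreg cells -0.0042 and -0.0041.

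With a library left out, the genotype difference in rTreg cells ranged from -0.14 to 0.44 for Foxn3, -0.087 to 0.042 for Foxk1 and -0.026 to 0.056 for Foxk2. In aTreg cells it ranged from -0.17 to 0.092 for Foxn3 and -0.10 to 0.15 for Foxk1. The subset difference ranged from -0.13 to 0.11 for Foxn2 in WT cells, and in Foxp1 cKO cells from -0.061 to 0.092 for Foxp4, -0.019 to 0.057 for Foxk2 and -0.039 to 0.030 for Foxj3. The interaction ranged from -0.034 to 0.085 for Foxo1, -0.058 to 0.12 for Foxo3, -0.49 to 0.087 for Foxn3, -0.088 to 0.16 for Foxk1 and -0.067 to 0.0021 for Foxj3. The cause of these changes was not tested.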

Other observations

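The genes most like Foxp1 across the 8 libraries, by Pearson's r of log2 CPM among 8948 genes with a mean of at least 10 CPM, were Cnr2, a cannabinoid receptor gene (0.995), Nsg2 (0.993), Ppan (0.988), Acvr1b, an activin receptor gene (0.985), and Ift80 (0.983). Cnr2 was at 24.4 and 26.9 CPM in WT rTreg, 25.7 and 25.1 in Foxp1 cKO rTreg, 19.0 and 20.3 in WT aTreg, and 11.9 and 10.6 in Foxp1 cKO aTreg cells. It was thus lowest where Foxp1 was lowest. Those most like Foxo1 were Tubb2a (0.988), Abtb2 (0.985), Sfswap (0.983), Ndrg2 (0.982) and Timeless (0.976). Tubb2a, a tubulin gene, was at 38.1 and 21.8 CPM in WT rTreg, 16.3 and 10.3 in Foxp1 cKO rTreg, 9.11 and 7.69 in WT aTreg, and 3.19 and 3.09 in Foxp1 cKO aTreg cells. The points share genotype, subset and replicate number, and the values are descriptions. Among the members themselves, Foxn3 and Foxk1 had an r of 0.944, Foxo1 and Foxo3 of 0.915, and Foxp1 and Foxo1 of 0.873.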
